A study of Mus musculus with 4 samples.

Results

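The genes described here encode 10 serotonin receptor subtypes, Htr1a, Htr1b, Htr1d, Htr2a, Htr2c, Htr3a, Htr4, Htr5a, Htr5b and Htr7, and they were found by gene name among the 28193 genes of the deposited table. fosTRAP-seq was used to measure RNA bound to tagged ribosomes in hippocampal cells that had been active during sleep deprivation (SD). All mice were male C57BL/6J, 3 to 5 months old, and carried the same pair of viruses in dorsal CA1. One virus expressed an inducible Cre recombinase, ERT2-Cre-ERT2-PEST, from the c-Fos promoter, and the other a Cre-dependent, HA-tagged ribosomal protein Rpl22 with eYFP from the EF1a promoter. On day 0, mice of both groups were kept awake for 5 h by gentle handling and received 4-hydroxytamoxifen (4-OHT) at zeitgeber time (ZT) 2, so the tag was set by SD in both groups. On day 7, SD mice were kept awake again from ZT 0 to ZT 5, and non-sleep-deprived (NSD) mice were left undisturbed. The comparison therefore asks how the ribosome-bound RNA of cells tagged by an earlier SD differed after a second bout. CA1 tissue from 5 mice was pooled for each library, 10 mice entered each group, and 2 libraries were sequenced per group. The sample labels name the tissue as dorsal hippocampus and the genotype as cFos-Cre:Ribotag, whereas the viral delivery to CA1 comes from the study's methods.

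Serotonin reaches the hippocampus in axons of raphe neurons, whose cell bodies lie in the brainstem. The 5-HT1 and 5-HT5A receptors couple to Gi/o and lower cyclic AMP, the 5-HT2 receptors couple to Gq and phospholipase C, and the 5-HT4, 5-HT6 and 5-HT7 receptors couple to Gs and raise cyclic AMP. The 5-HT3 receptor is instead a cation channel opened by serotonin. CA1 pyramidal neurons are known for strong 5-HT1A expression, and the choroid plexus for strong 5-HT2C expression.

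The 4 libraries held 153511705 to 195910235 estimated counts, and all 10 receptor genes had more than 5 counts in every library. Levels are given as CPM, the counts divided by the TMM-scaled library total, in the order NSD 1, NSD 2, SD 1, SD 2, and a difference between groups as a log2 fold change of SD over NSD from edgeR with its standard error. Excitatory markers were abundant, with the vesicular glutamate transporter Slc17a7 at 693 to 808 CPM, and so was the inhibitory marker Gad1, a GABA-synthesizing enzyme, at 311 to 332 CPM. Transthyretin (Ttr), the defining transcript of the choroid plexus, was at 14.2, 69.8, 25.6 and 4.21 CPM, so NSD library 2 stood highest and SD library 2 lowest. Several CA1 markers and all 4 subiculum markers also separated the SD from the NSD libraries. No CA1 marker passed the test, and the part of these markers in the receptor values was not tested. Of the 6 CA1 markers, 4 were lower in both SD libraries than in either NSD library, against 27.5% of all genes tested. Among those 4, Wfs1 was at 390, 441, 279 and 355 CPM, whereas the CA1 marker Mpped1 went the other way, at 437, 454, 481 and 504 CPM, and Pou3f1 overlapped. All 4 subiculum markers were higher in both SD libraries than in either NSD library, against 22.0% of all genes, and 2 of them, Nts and Tshz2, passed the test (adjusted p = 0.0397 and 0.0453, edgeR), against 0.770% of all genes called higher. All 6 endothelial markers had log2 fold changes below 0, and 5 of them were lower in both SD libraries than in either NSD library. With the replicate block, 4 CA1 and 4 endothelial markers were called lower and 3 subiculum markers higher, against 0, 0 and 2 without it. That fit called 8.47% of all genes lower and 2.99% higher, against 2.33% and 0.770% without it. It also called 3 of the 6 CA2 and 2 of the 6 excitatory markers lower, and 0 of them higher. In such bulk samples, fewer cells of a type and less RNA per cell cannot be told apart.

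The receptor genes lie on 9 chromosomes and share only short identical runs of coding sequence. Among the 45 pairs of these receptor genes, the longest identical run of coding bases was 26 bases, between Htr2a and Htr2c, and the next longest was 20 bases, between Htr1b and Htr1d, against reads of 150 bases. These pairs are shown because they hold the longest exact runs found; only coding sequence was compared, and likeness short of identity was not measured. Capitals mark the identical run, lower case the 12 coding bases on each side, and each is written 5′ to 3′ on the gene's own strand (GRCm39). The Htr2a segment lies in a coding exon on the plus strand at chr14:74882484-74882533, and the Htr2c segment in a coding exon on the plus strand at chrX:145952622-145952671. The Htr1b segment lies in its single coding exon on the minus strand at chr9:81514145-81514188, and the Htr1d segment in its single coding exon on the plus strand at chr4:136170160-136170203.
Htr2a: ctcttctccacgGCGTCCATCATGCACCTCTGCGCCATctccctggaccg
Htr2c: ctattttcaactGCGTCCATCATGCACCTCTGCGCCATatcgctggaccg
Htr1b: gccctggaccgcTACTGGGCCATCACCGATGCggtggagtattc
Htr1d: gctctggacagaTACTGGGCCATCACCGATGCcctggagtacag

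No receptor gene passed the test for a difference between SD and NSD. Of the 10, 0 were called higher and 0 lower (edgeR, adjusted p under 0.05 and fold change over 1.2), against 0.770% of the 22338 genes tested called higher and 2.33% called lower. None had an unadjusted p under 0.05, against 19.1% of all genes tested, and the adjusted p-values ran from 0.353 to 0.757. In either direction, 3.10% of all genes were called. A fit with the replicate number, used as batch number, as a term (replicate block) also called 0 of the 10. It called 2.99% of all genes higher and 8.47% lower, 11.5% in all. DESeq2 called 0 of the 10 as well, against 2.99% higher and 5.79% lower, or 8.79% in all. The log2 fold changes were above 0 for 6 genes and below 0 for 4, with a median of 0.12 beside −0.02 over all genes tested. The 95% intervals bound what these libraries could have missed: for Htr1a the whole interval lay within a 1.2-fold change in either direction, and for 9 of the 10 genes it lay within a 1.5-fold change, Htr1d being the exception. The plot of fold changes shows these intervals.

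**Figure D1:**
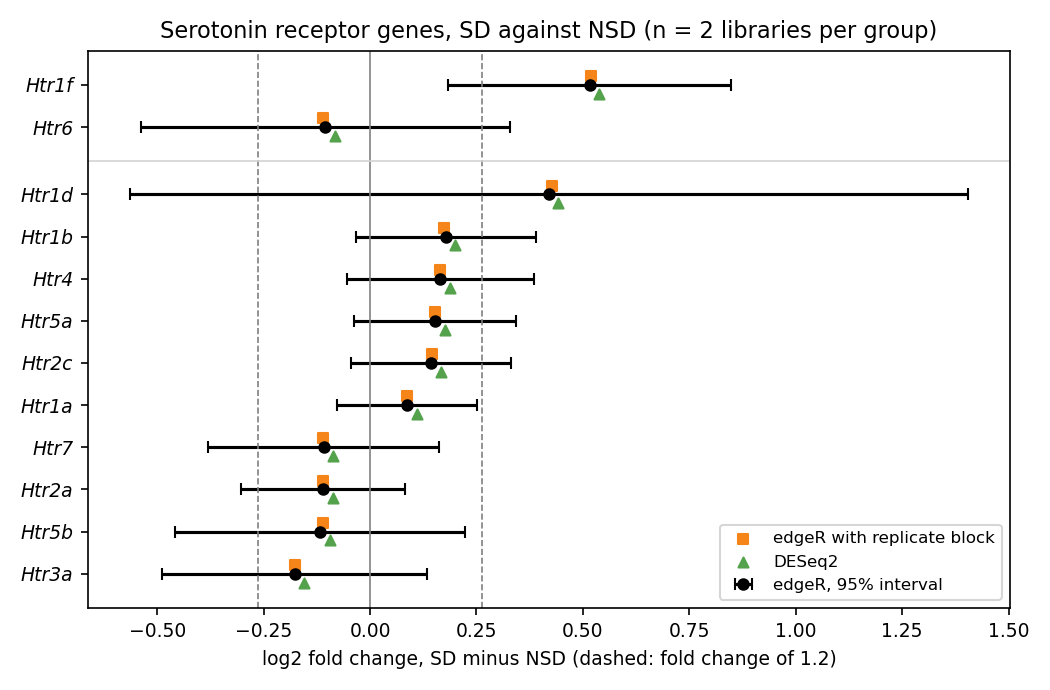
Log2 fold change of SD over NSD for the 10 receptor genes (lower block) and for Htr1f and Htr6 (upper block), with n = 2 libraries per group. Black points and bars are the edgeR estimate and its 95% interval, orange squares the edgeR fit with the replicate block, green triangles DESeq2, and dashed lines a 1.2-fold change; the intervals of all 10 receptor genes in the lower block cross 0, and Htr2b (log2 fold change −1.59) is not drawn.

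Among the Gi/o-coupled subtypes, Htr1a, the main inhibitory serotonin receptor of hippocampal pyramidal cells, was at 49.5, 53.6, 53.2 and 56.3 CPM. The groups overlapped, since SD library 1 was below NSD library 2. Its log2 fold change was 0.09 ± 0.07 (SE; adjusted p = 0.595, edgeR), with a 95% interval of −0.08 to 0.25. Htr1b, known as a presynaptic receptor that restrains transmitter release, was at 27.9, 29.7, 30.0 and 35.2 CPM. Both SD values were above both NSD values, but SD library 1 exceeded NSD library 2 only slightly, and SD library 2 stood apart from the other three. The log2 fold change was 0.18 ± 0.09 (adjusted p = 0.353, edgeR), the lowest adjusted p of the 10 genes. Htr1b shares 897 exon bases with D430036J16Rik, a long noncoding RNA on the opposite strand with 227 to 334 counts per library beside 4633 to 6659 for Htr1b.

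Htr1d, a close relative of Htr1b, was barely counted: 55, 40, 77 and 68 counts, or 0.332, 0.255, 0.426 and 0.360 CPM. The SD libraries were above the NSD libraries, but the exact 95% Poisson interval of NSD library 1, 41.4 to 71.6 counts, contained the count of SD library 2. The log2 fold change was 0.42 ± 0.43 (adjusted p = 0.685, edgeR), and its 95% interval of −0.56 to 1.41 was wide and covered 0. Htr5a, which encodes the Gi/o-coupled 5-HT5A receptor, was at 17.3, 18.5, 19.7 and 20.1 CPM. Both SD values were above both NSD values, with a log2 fold change of 0.15 ± 0.08 (adjusted p = 0.376, edgeR). Htr5b, whose coupling is unsettled and which is a pseudogene in humans, was at 6.59, 8.34, 6.50 and 7.27 CPM. NSD library 2 was the highest of the 4, and NSD library 1 lay between the SD libraries, so the groups overlapped (log2 fold change −0.12 ± 0.15, adjusted p = 0.757, edgeR). The sign turned to 0.06 without NSD replicate 2.

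The Gq-coupled pair had log2 fold changes of opposite sign, and neither passed the test. Htr2a, the receptor at which classical psychedelics act, was at 19.9, 19.9, 17.6 and 19.2 CPM. Both SD libraries were below the NSD libraries, which were almost equal, and the log2 fold change was −0.11 ± 0.08 (adjusted p = 0.560, edgeR). Htr2c was at 33.3, 38.0, 38.4 and 40.2 CPM. Both SD values were above both NSD values, but NSD library 2 and SD library 1 were nearly equal (log2 fold change 0.14 ± 0.08, adjusted p = 0.411, edgeR). For the choroid plexus, where Htr2c is strongly expressed, the summed level of the 10 markers was 64.6, 145, 68.4 and 41.8 CPM. Kl alone gave 45.2, 57.4, 35.4 and 34.9 CPM of it, almost equal in the SD libraries, where Ttr differed. All 9 markers tested had log2 fold changes below 0. Among them 1, Kl, was called lower (adjusted p = 0.0405, edgeR), against 2.33% of all genes. The replicate block called 2 lower, against 8.47%. Htr2c was highest in SD library 2, where Ttr and the marker sum were lowest, and the part of choroid plexus RNA in the Htr2c values was not tested. The plot of markers shows these values side by side.

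**Figure D2:**
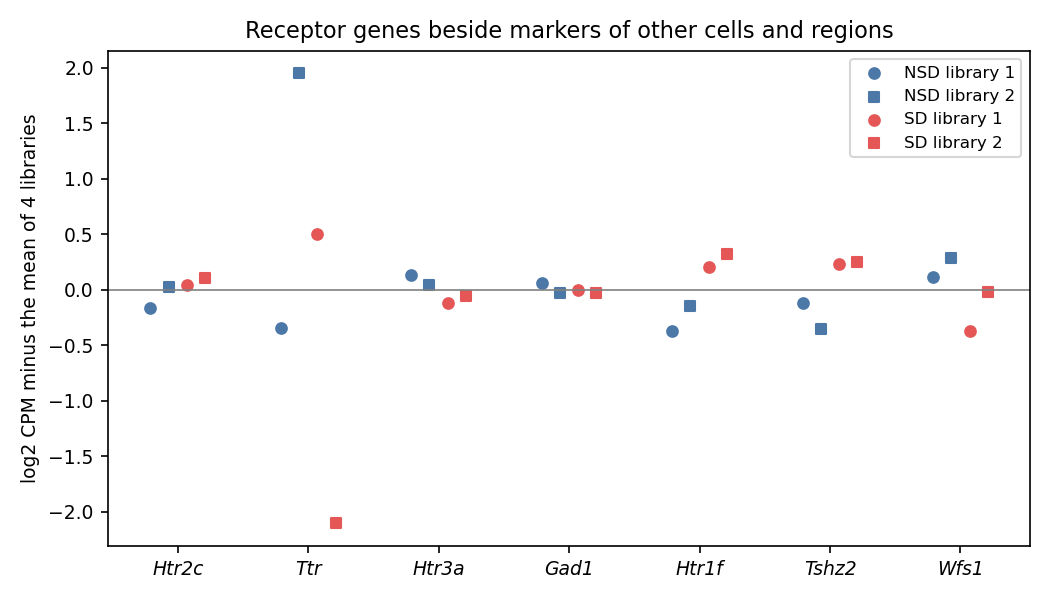
Log2 CPM of Htr2c, Htr3a and Htr1f and of markers of choroid plexus (Ttr), interneurons (Gad1), subiculum (Tshz2) and CA1 (Wfs1), each minus its own mean over the 4 libraries; every point is 1 library. Ttr spreads far more widely than Htr2c, with NSD library 2 highest and SD library 2 lowest, while Htr1f and Tshz2 both have their SD points above their NSD points.

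The Gs-coupled subtypes also differed in sign. Htr4 was at 11.1, 11.6, 12.4 and 13.0 CPM. Both SD values were above both NSD values, and the log2 difference was 0.16 in batch 1 and 0.17 in batch 2 (log2 fold change 0.16 ± 0.10, adjusted p = 0.414, edgeR). Htr7 was at 8.56, 8.27, 7.33 and 8.28 CPM. NSD library 2 and SD library 2 were almost equal, so the groups overlapped (log2 fold change −0.11 ± 0.12, adjusted p = 0.708, edgeR). Htr3a, the subunit needed for every 5-HT3 channel and in hippocampus a gene of interneurons, was at 6.04, 5.66, 5.07 and 5.28 CPM. Both SD values were below both NSD values (log2 fold change −0.18 ± 0.14, adjusted p = 0.561, edgeR). Among the 12 interneuron markers, 2 had each SD value below each NSD value and 1 above, against 27.5% and 22.0% of all genes, 0 were called by the edgeR fit, against 3.10%, and their summed level was 1427, 1374, 1409 and 1300 CPM, which overlapped between the groups. With the replicate block 1 of the 12, Sst, was called lower (log2 fold change −0.33, adjusted p = 0.0118, edgeR), against 8.47% of all genes.

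**Figure D3:**
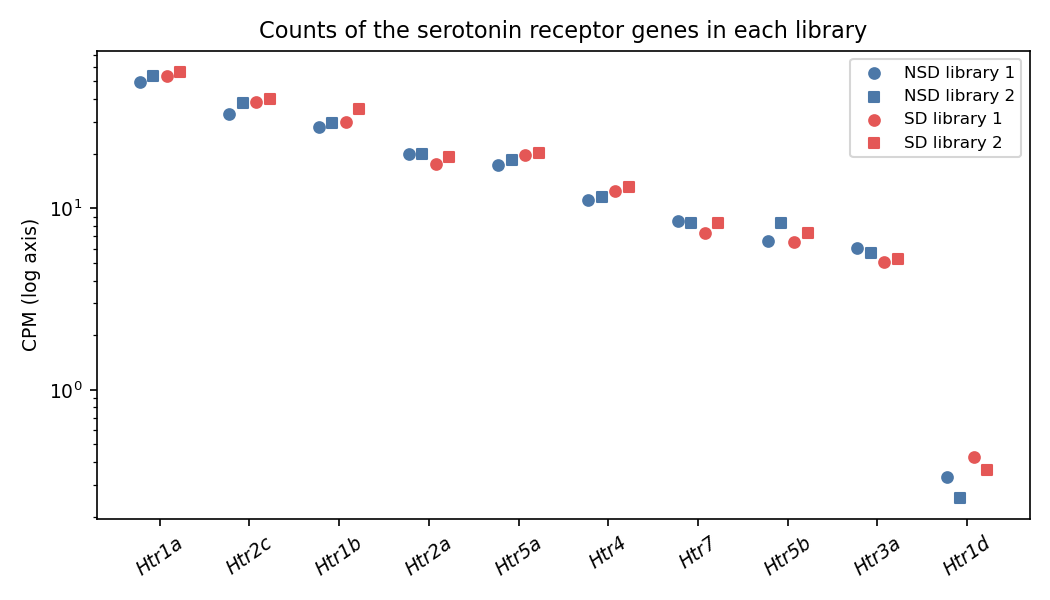
CPM of each receptor gene in each library on a log axis, with blue for NSD, red for SD, circles for batch 1 and squares for batch 2. The genes run from Htr1a at 49.5 to 56.3 CPM down to Htr1d at 0.255 to 0.426 CPM, and the ranges of Htr2c and Htr1b, of Htr2a and Htr5a, and of Htr7 and Htr5b overlap.

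Counting the separations, 5 of the 10 genes had each SD value above each NSD value (Htr1b, Htr1d, Htr2c, Htr4 and Htr5a), 2 had both below (Htr2a and Htr3a), and 3 overlapped (Htr1a, Htr5b and Htr7). Over all genes tested, 22.0% were separated upward and 27.5% downward, and over protein-coding genes 26.5% and 20.0%. With the replicate numbers taken as batches, 9 of the 10 genes had the same sign in batch 1 and batch 2. Htr7 was the exception, and 67.3% of all genes tested had the same sign. A ratio to Htr1a inside each library removes the library's scaling. The Htr2a count was 40.1% (NSD 1) and 37.0% (NSD 2) of the Htr1a count, beside 33.1% (SD 1) and 34.1% (SD 2). The Htr3a count was 12.2% and 10.6% of it without the second bout and 9.52% and 9.38% with it. Htr5b and Htr7 also had lower ratios in both SD libraries, Htr2c, Htr4 and Htr5a had higher ratios, and Htr1b and Htr1d overlapped. By the same ratio, 37.8% of all genes tested were lower in both SD libraries and 10.7% higher. These ratios are descriptions, without a test.

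Levels of different subtypes can be compared only per length, so CPM were divided by the kilobases of annotated exon. Htr1a led with 11.9 ± 0.625 CPM per kilobase (SD, n = 4 libraries), higher than 84.4% of 15533 protein-coding genes. Htr1b followed with 6.47 ± 0.661 and Htr2c with 4.01 ± 0.318. Htr5b (3.33), Htr2a (2.89), Htr3a (2.31), Htr5a (2.14), Htr7 (2.03) and Htr4 (1.31) formed a gradual series, and Htr1d was last with 0.0830 ± 0.0172 CPM per kilobase, higher than only 7.78% of protein-coding genes. Htr4, the next lowest, was 16.0 times above Htr1d. Neighbours whose ranges over the libraries overlapped were Htr2c and Htr5b, Htr3a and Htr5a, and Htr5a and Htr7. Htr1a was above Htr1b in 4 of 4 libraries, by 1.84 times, yet an exact two-sided sign-flip permutation test over 4 libraries cannot give a p below 0.125, the value found for 7 of the 9 neighbouring pairs. The order depended on the gene length used: with the longest transcript of each gene, Htr2c, whose annotated exons total far more than any single transcript, came to 7.65 CPM per kilobase, above Htr1b. Within the gene bounds of the deposited table, Htr5a, whose annotation extends further downstream, came to 3.51 CPM per kilobase and the fifth place.

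**Figure D4:**
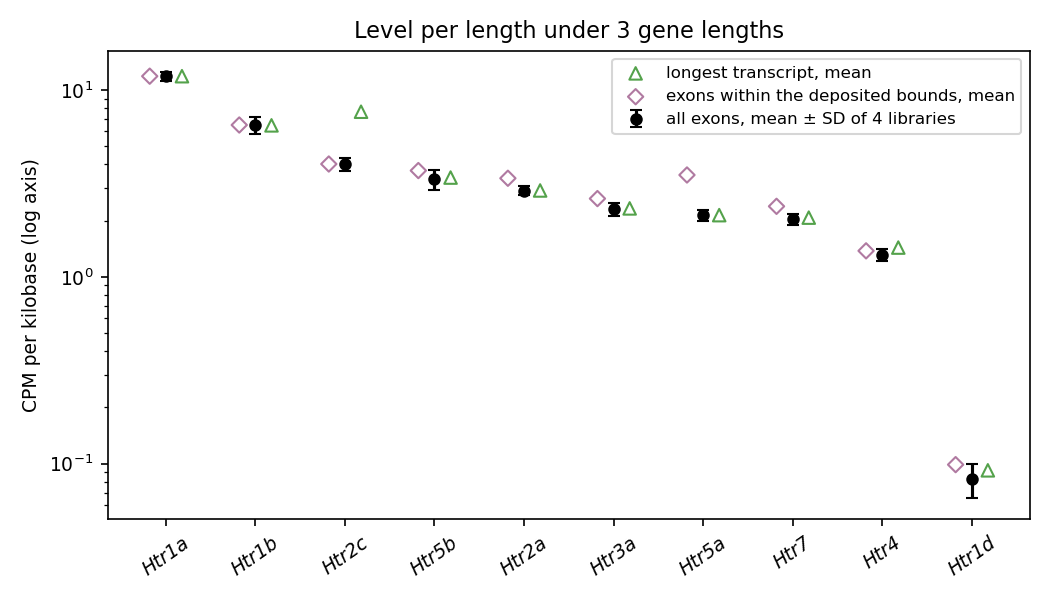
Level per kilobase of each receptor gene on a log axis, from the gene with the highest mean to that with the lowest. Black points with bars are the mean and SD over the 4 libraries using all annotated exons, triangles the mean with the longest transcript and diamonds the mean with exons inside the deposited gene bounds; Htr2c and Htr5a are the genes that move most.

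Grouped by signalling class, the Gi/o-coupled subtypes Htr1a, Htr1b, Htr1d and Htr5a made up 55.0%, 55.0%, 57.6% and 57.8% of the summed level per kilobase. Htr1a alone held 32.0% to 33.3%. The Gq-coupled pair held 18.7% to 19.1% and the Gs-coupled pair 8.96% to 9.74%. Htr3a, the ion channel, held 7.33%, 6.41%, 5.95% and 5.72%, and Htr5b 8.46% to 10.4%. The Gi/o share was higher in both SD libraries, the Gq, ion channel and Htr5b shares were lower, and the Gs share overlapped. The shares of a library add up to a fixed whole, so they are not independent of each other. The Gq shares were close, at 19.05%, 19.09%, 19.02% and 18.67%, and combine Htr2a, lower in both SD libraries, with Htr2c, higher in both. Sums over chosen genes were not tested. The plot of classes shows how little the mixture varied among libraries.

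**Figure D5:**
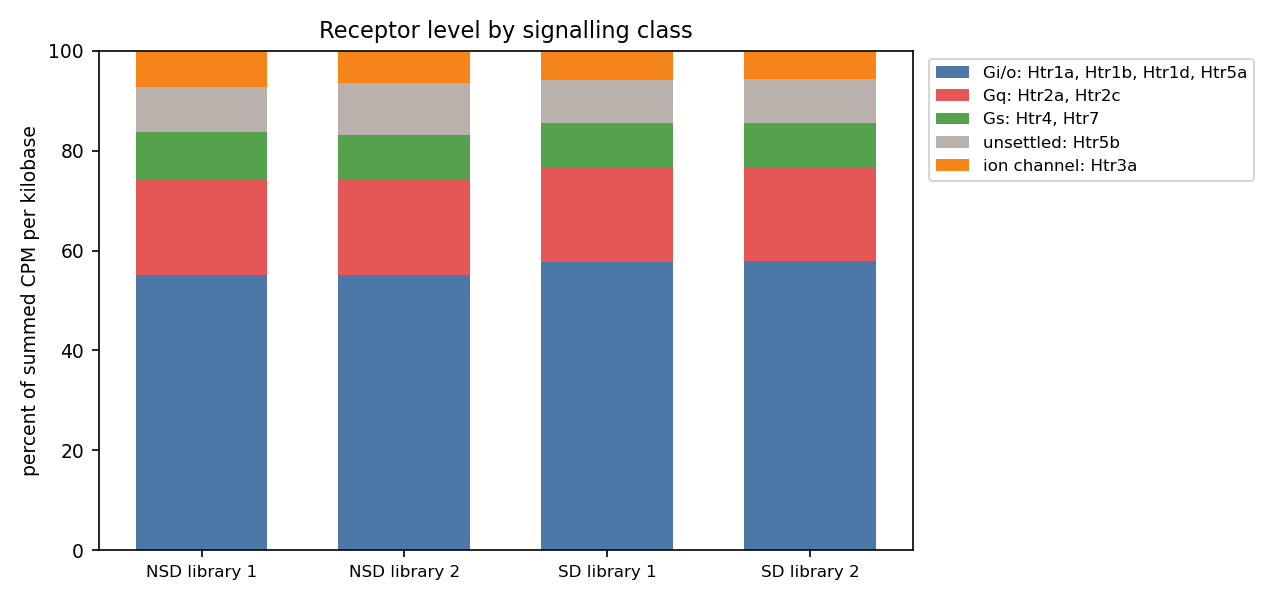
Percent of the summed CPM per kilobase of the 10 receptor genes held by each signalling class, as stacked bars from 0 to 100 for the 4 libraries. The Gi/o class is the largest in every library, at 55.0% to 57.8%.

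Other serotonin receptor genes fall outside the 10. Htr1f, which encodes the Gi/o-coupled 5-HT1F receptor, was at 4.40, 5.17, 6.57 and 7.12 CPM, each SD value above each NSD value. Its log2 fold change of 0.52 ± 0.15 missed the threshold (adjusted p = 0.0945, edgeR), and it was called with the replicate block (adjusted p = 0.0127, edgeR) and by DESeq2 (adjusted p = 0.0146). The study lists Htr1f among its changed genes from these same libraries, so this value is not independent evidence. The subiculum markers, with a summed level of 538, 522, 684 and 713 CPM, separated the groups in the same direction, and their part in the Htr1f value was not tested. Htr2b, a Gq-coupled receptor better known from blood vessels and heart, had 89.3, 53.7, 30.0 and 24 counts (log2 fold change −1.59 ± 0.49, adjusted p = 0.116, edgeR; 0.0464 with the replicate block). Its exons share 252 bases with Psmd1, a proteasome gene on the opposite strand with 11093 to 13946 counts, and the endothelial markers, summing to 36.8, 52.1, 30.7 and 20.7 CPM, also differed among the libraries; the part of either in the Htr2b counts was not tested. Htr6, the remaining Gs-coupled receptor, was at 3.24, 3.63, 3.54 and 2.85 CPM and overlapped between groups. Htr3b was looked for by name and was not found in the deposited table.

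Genes that make serotonin or carry its signal were counted by list. Of 59 genes listed, 56 were tested, the receptors Htr1f, Htr2b and Htr6 included, and 0 were called higher and 0 lower by edgeR, with 17 at an unadjusted p under 0.05, where the share over all genes was 19.1%. With the replicate block, 3 were called higher (Htr1f, Grk3 and Grk5) and 1 lower (Htr2b), against 2.99% and 8.47% of all genes, and DESeq2 called the same 3 higher, against 2.99%. Mpped1, Pou3f1, Fev, Slc18a2, Sst, Grk3, Grk5, Grk6 and Arrb2 were chosen for naming after their values were seen. Tph2, the neuronal serotonin-synthesizing enzyme, was at 0.420 to 0.561 CPM, and the raphe transcription factor Fev at or below 0.138 CPM. Of the 7 listed markers of serotonin neurons 5 were tested and 0 called, and the most abundant was the vesicular monoamine transporter Slc18a2, at 5.74, 5.86, 6.94 and 7.26 CPM. Maoa, which breaks serotonin down, was the most abundant of its list at 15.2, 16.1, 13.7 and 13.4 CPM (log2 fold change −0.21 ± 0.09, adjusted p = 0.259, edgeR).

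Among the signal carriers, the Gs alpha subunit gene Gnas was at 669 to 779 CPM, the beta subunit Gnb1 at 538 to 593 CPM, and phospholipase C beta 1 (Plcb1) at 299 to 333 CPM; none of the 3 passed the test. Kinases that phosphorylate activated receptors and so switch them off did not pass the edgeR test either. Grk3 was at 152, 139, 181 and 173 CPM (log2 fold change 0.28 ± 0.08, adjusted p = 0.0866, edgeR), each SD value above each NSD value. The replicate block gave an adjusted p of 0.00749 and DESeq2 0.00438. Grk5 was at 20.7, 20.0, 28.5 and 23.5 CPM (0.35 ± 0.10, adjusted p = 0.102, edgeR; 0.00925 with the replicate block), and SD library 1 was well above SD library 2. Grk6 was at 37.2, 37.7, 44.5 and 43.1 CPM (0.23 ± 0.07, adjusted p = 0.103, edgeR). Neither arrestin gene, whose products bind the phosphorylated receptors, passed the test. Arrb1, the most abundant gene of this list, was at 434, 395, 495 and 462 CPM, and Arrb2 at 25.0, 26.4, 22.1 and 20.8 CPM. Their adjusted p-values were 0.253 and 0.114 (edgeR). For Arrb1 the adjusted p was 0.0598 with the replicate block (edgeR) and 0.0492 by DESeq2, and for Arrb2 0.0293 and 0.0998. Neither was called in these fits.

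The genes whose log2 CPM followed Htr1a most closely over the 4 libraries were Tnip1, Wdr89 and Abhd6, each with a Pearson correlation above 0.95, as had 887 of 15550 protein-coding genes (5.70%). With 4 points that share their libraries, such likeness is a description only.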

How the data were processed

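Ribosome-bound RNA from 4 libraries (2 NSD, 2 SD) was analysed. The authors made stranded total RNA libraries, aligned 150-base paired reads with STAR and deposited estimated counts per gene from Partek's expectation-maximization model (mm39, Ensembl release 110), not normalized; whether counting used strand is not given in the sources used here. These counts were rounded, and the 22338 genes counted above 5 in each of the 4 libraries were tested with edgeR 4.0.16 (R 4.3.3; TMM scaling, quasi-likelihood test, condition only, Benjamini-Hochberg adjustment over all genes tested). Genes were called at an adjusted p under 0.05 when the fold change also exceeded 1.2. DESeq2 1.42.0, other scalings and filters, a replicate block and fits without each library were the alternatives. The scripts were tested on simulated data.

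The receptor genes, gene lists and tests were chosen with earlier results of these data known. The named genes were all receptor genes, called genes and the most abundant gene of each pathway list, marker genes and the 3 genes most like Htr1a; a few others, named as such, were chosen after their values were seen. The replicate numbers were used as batch numbers and so to pair the libraries. Deviations of libraries with the same number from the means of their groups were weakly correlated (r = 0.178 across genes). Pooled mice within a library are not separate replicates, and n counts libraries. Exon lengths and coding sequences came from GENCODE vM39 (GRCm39), which is newer than the authors' annotation. Poisson intervals cover counting error only.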

Additional observations from a re-analysis of the deposited data

How the results depend on the processing

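Across 10 alternatives the 10 receptor genes gave 100 log2 fold changes, of which 99 kept their direction and 0 were called; the lowest adjusted p was 0.114, with the replicate block (edgeR). Leaving out 1 library moved the uncalled values of Htr1a (0.06 to 0.15), Htr1b (0.08 to 0.29), Htr1d (0.24 to 0.65), Htr2a (−0.16 to −0.05), Htr2c (0.08 to 0.24), Htr3a (−0.22 to −0.10) and Htr7 (−0.18 to −0.02) by over 1.5 times; Htr4 and Htr5a moved less. The exception in direction was Htr5b, from −0.25 without NSD replicate 1 to 0.064 without NSD replicate 2. Outside the 10, Htr6 ran from −0.27 without SD replicate 1 to 0.061 without SD replicate 2. Counts over all genes, 172 higher and 520 lower, became 50 and 80 with no count filter, 1 and 0 with filterByExpr, 668 and 1891 with the replicate block, 51 and 39 among protein-coding genes only, and 669 and 1294 with DESeq2. Leaving out 1 library gave 144 to 321 higher and 87 to 1953 lower; without NSD replicate 1 it was 87 lower, and without SD replicate 1 291 higher and 1953 lower. Without SD replicate 2 it was 321 higher and 791 lower. The cause was not tested. Pathway genes called higher went from 0 to 3 with the replicate block and 3 with DESeq2, and called lower to 1 with the block; leaving out 1 library gave 0 to 1 higher (Gnai1 without NSD replicate 2, Grk5 without SD replicate 2). The replicate block changed no call among the 10 receptor genes.

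With the longest transcript as length, the Gi/o, Gq and Gs shares became 50.9%, 26.2% and 8.71%, since Htr2c is then counted over fewer bases. Adding the other receptor genes gave 18.2% for Gq and 11.5% for Gs, and the deposited gene bounds, a length chosen after seeing the data, gave 18.7% for Gq. There were 2 pooled libraries per group, and Htr1d had few counts. The part of the spread between libraries and of these counts in the lack of calls was not tested.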
